A study of Mus musculus with 5 samples.

Results

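Open chromatin at promoters, and at distal elements such as enhancers, is cut readily by the nuclease DNaseI, and sequencing the cut ends gives a list of DNaseI hypersensitive sites (DHSs). The regions described here are distal DHSs that were listed in macrophages (MAC) and in none of 4 earlier stages of blood development in culture. Sites of all stages were given a common width of 500 bp round their middles, and those that then overlapped by a set minimum were chained. The regions were then chosen by the lists, as those with a MAC window, without a window of another stage, and with a centre over 2 kb from every protein-coding transcription start site (TSS). This left 19984 of 68846 merged regions, and 38.2% of the 52345 distal ones. The choice rests on the measured lists themselves, so the presence of a MAC site and the absence of the others are a description of the choice and not a result.

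All cells were sorted after differentiation in vitro of a strain 129 mouse ES line that carries a GFP reporter of the mesoderm gene Brachyury (Bry). Mesoderm (MES) was sorted as FLK1- among Bry.GFP+ cells, whereas hemangioblasts (HB), which can form both blood and endothelium, were the FLK1+ ones. Sorting for Tie2 and Ckit without CD41, again among Bry.GFP+ cells, gave hemogenic endothelium (HE), the endothelium that turns into blood. CD41 marked hematopoietic progenitors (HP) and CD11b marked MAC, which were grown from CD41+ cells. Each stage gave 1 list of sites (n = 1), and the MAC list carries a label that names replicates 1 and 2 together. No spread between replicates can therefore be given, no difference between stages was tested, and each interval below covers counting error only.

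The lists held 21949 (MES), 24729 (HB), 33305 (HE), 17734 (HP) and 37456 (MAC) sites, with median widths from 600 bp in MAC to 1200 bp in HE. The lists used here carry no read counts, so the depth behind a single site cannot be given, and an absent site means only that none was listed. Macrophage markers fitted the label of the MAC list. Promoters of all 6 markers (Itgam, Adgre1, Cd68, Csf1r, Lyz2 and Tyrobp) had a MAC site within 1 kb, against 1 of 6 in each other stage. In the MAC list, promoter sites were absent at all 4 mesoderm and all 3 pluripotency markers, but 1 of 4 endothelial markers (Kdr) and 2 of 4 erythroid and megakaryocyte markers (Klf1 and Pf4) had one. The part of other cell types in these regions was not tested.

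Macrophages are phagocytes that engulf and digest particles, sense microbes and secrete inflammatory signals. Their enhancers are built around PU.1, the ETS family factor encoded by Spi1 that all myeloid cells need, which binds together with C/EBP factors, AP-1 (dimers of Fos and Jun proteins), IRF8 and RUNX1. GATA, SOX and TEAD factors act mainly in the earlier endothelial and progenitor stages. CTCF is an insulator protein that binds largely the same sites in all cell types.

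Sequences of 6 of the regions show what such elements look like. For each of 6 gene lists described below (myeloid transcription factors, surface, Toll-like receptor, Fc receptor, lysosome and cytokine genes), the region nearest to a listed gene with most kinds of myeloid consensus letters in its central 200 bp was taken. The sequences, from RefSeq, are the plus strand of GRCm38 (mm10), 5′ to 3′, with capitals where consensus letters of a myeloid or inflammatory factor, spelled out below, were found on either strand. The Tfec region (chr6:16964150-16964349) lies at -65.8 kb from the TSS of that gene of an MiT family transcription factor, between genes. The Cd36 region (chr5:17879996-17880195) is in an intron of that gene, which encodes a scavenger receptor for lipids. Intergenic regions lie at -21.6 kb from Tlr2, a receptor for bacterial lipoproteins (chr3:83863116-83863315), and at -7.0 kb from Fcgr1, the high-affinity receptor for IgG (chr3:96300866-96301065). The Ctsd region (chr7:142399360-142399559) lies at -11.6 kb from the gene of the lysosomal protease cathepsin D, and the Il1b region (chr2:129373375-129373574) at -2.34 kb from that cytokine gene.

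Tfec: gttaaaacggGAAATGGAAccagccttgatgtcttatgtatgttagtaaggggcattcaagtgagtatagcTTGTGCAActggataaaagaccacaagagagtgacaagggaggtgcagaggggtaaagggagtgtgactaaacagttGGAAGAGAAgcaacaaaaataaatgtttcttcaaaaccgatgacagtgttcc
Cd36: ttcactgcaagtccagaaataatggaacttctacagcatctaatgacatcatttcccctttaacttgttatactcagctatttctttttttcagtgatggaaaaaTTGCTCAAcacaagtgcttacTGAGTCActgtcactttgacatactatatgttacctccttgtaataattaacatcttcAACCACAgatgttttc
Tlr2: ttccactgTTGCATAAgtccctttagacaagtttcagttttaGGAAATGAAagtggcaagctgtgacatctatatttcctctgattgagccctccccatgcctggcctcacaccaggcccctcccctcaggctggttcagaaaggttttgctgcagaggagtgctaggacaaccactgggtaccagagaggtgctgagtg
Fcgr1: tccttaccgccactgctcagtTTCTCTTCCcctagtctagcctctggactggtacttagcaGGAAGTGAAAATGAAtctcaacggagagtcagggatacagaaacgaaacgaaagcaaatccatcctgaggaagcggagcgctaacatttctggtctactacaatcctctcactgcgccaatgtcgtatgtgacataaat
Ctsd: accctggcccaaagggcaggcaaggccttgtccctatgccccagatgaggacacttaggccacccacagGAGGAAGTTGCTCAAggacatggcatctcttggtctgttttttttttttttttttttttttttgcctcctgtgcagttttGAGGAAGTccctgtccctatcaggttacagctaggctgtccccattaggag
Il1b: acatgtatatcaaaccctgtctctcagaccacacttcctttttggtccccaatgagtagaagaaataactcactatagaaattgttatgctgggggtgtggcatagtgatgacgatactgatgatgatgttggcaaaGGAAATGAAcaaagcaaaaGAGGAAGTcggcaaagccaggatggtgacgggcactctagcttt

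The Ctsd region held 2 PU.1 matches, at base 70 and base 150 of the printed run, and the first of these shared 1 base with a CEBP match at base 77. In the Cd36 region a CEBP match at base 106, an AP1 match at base 127 and a RUNX match at base 185 followed each other. The Fcgr1 region carried ETS-IRF letters at bases 22 and 62, the latter overlapping IRF letters at base 68. The Il1b region held ETS-IRF letters at base 138 and PU.1 letters at base 157. None of the 6 is typical in the number of its matches, since they were picked for it.

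Exact matches to consensus letters, with N for any base, were sought in either strand of the middle 500 bp of every region. They were GAGGAAGT for PU.1, TTGCNNAA for CEBP, TGATGCAA for a joined C/EBP and ATF site (CEBP-ATF), TGACTCA for AP1, GGAANNGAA for ETS-IRF, GAAANNGAA for IRF, TGTGGTT for RUNX and GGANTTTCC for NF-kB. Further letters were TGCTGAC for a MARE-like core, as bound by large Maf proteins, TCACGTGA for E-box-TFE, and CCCCACCC for KLF factors. AGATAA was searched for GATA factors, ACATTCCA for TEAD, ACAATGG for SOX and CAGGNGGC for CTCF. Of all 52345 distal regions, 9.47% held the PU.1 letters, 22.8% CEBP, 21.5% AP1, 13.4% RUNX, 15.9% IRF, 17.2% ETS-IRF, 2.66% NF-kB, 1.93% CEBP-ATF and 12.1% MARE-like. GATA letters were in 27.3%, SOX in 7.77%, TEAD in 3.61%, CTCF in 13.3%, KLF in 11.6% and E-box-TFE letters in 0.590% of them. Overlaps between kinds were few. Among regions with MARE-like letters, 6.5% had a match that overlapped AP1 letters, and among regions with ETS-IRF letters 3.54% overlapped PU.1 and 3.94% IRF letters. A match describes the letters of a region, not binding.

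Beside their flanks, the MAC-only distal regions were rich in PU.1, AP1 and CEBP letters. The PU.1 letters were in 2926 of them, or 14.6% (95% Wilson interval 14.2 to 15.1), against 3.04% of 37689 flanks, which are windows of the same length 1.5 kb to either side that meet no region of any stage. This is a 4.82-fold ratio. AP1 letters were in 27.1% (26.5 to 27.7) of regions and 8.52% of flanks. CEBP letters, which are shorter in fixed bases and so more frequent by themselves, were in 30.4% (29.8 to 31.1) and 18.8%. At least 1 of these 3 was present in 58.4% of the regions and 28.1% of the flanks.

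Smaller differences from the flanks were found for the other myeloid letters. CEBP-ATF letters were in 2.91% of regions and 1.25% of flanks, and MARE-like letters in 14.2% and 7.66%. RUNX letters were in 16.1% and 12.4%, ETS-IRF letters in 19.9% and 15.8%, and IRF letters in 19.2% and 16.2%. NF-kB letters, bound by the factors that drive inflammatory genes, were at 2.04% and 1.68%, a difference of 0.36 percentage points (95% Newcombe interval 0.13 to 0.60). Spelled in reverse order, NF-kB letters were more frequent than this, at 2.39% and 2.28%, and differed by 0.11 points (-0.15 to 0.37). E-box-TFE letters, which MiT family factors such as Mitf and Tfec bind, were rare in regions (0.686%) but 2.35 times as frequent as in flanks (0.292%), where their reversed letters had a ratio of 1.40.

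Spelled in reverse order, which keeps the base composition, some of these letters were about as frequent in regions as in flanks and others were more frequent. The interval of the reversed difference excluded 0 for AP1, ETS-IRF, IRF, MARE-like and E-box-TFE letters. Reversed PU.1 letters were in 3.55% of regions and 3.39% of flanks, and reversed RUNX letters in 7.72% and 7.52%. For IRF the reversed letters were nearly as frequent as the true ones, in 18.6% of regions and 17.3% of flanks. Reversed ETS-IRF letters were in 15.3% of regions and 13.8% of flanks, a difference of 1.45 points (0.85 to 2.06). Reversed AP1 letters, which share ACTCA with the true ones, were in 11.2% of regions and 8.97% of flanks. Reversed CEBP letters contain the rare dinucleotide CG (5.03% and 4.78%) and are a poor measure of background. The reversed CEBP-ATF and MARE-like letters contain CG too. E-box-TFE letters contain it in their true order alone, so their ratios of 2.35 and 1.40 are not matched for it.

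**Figure D1:**
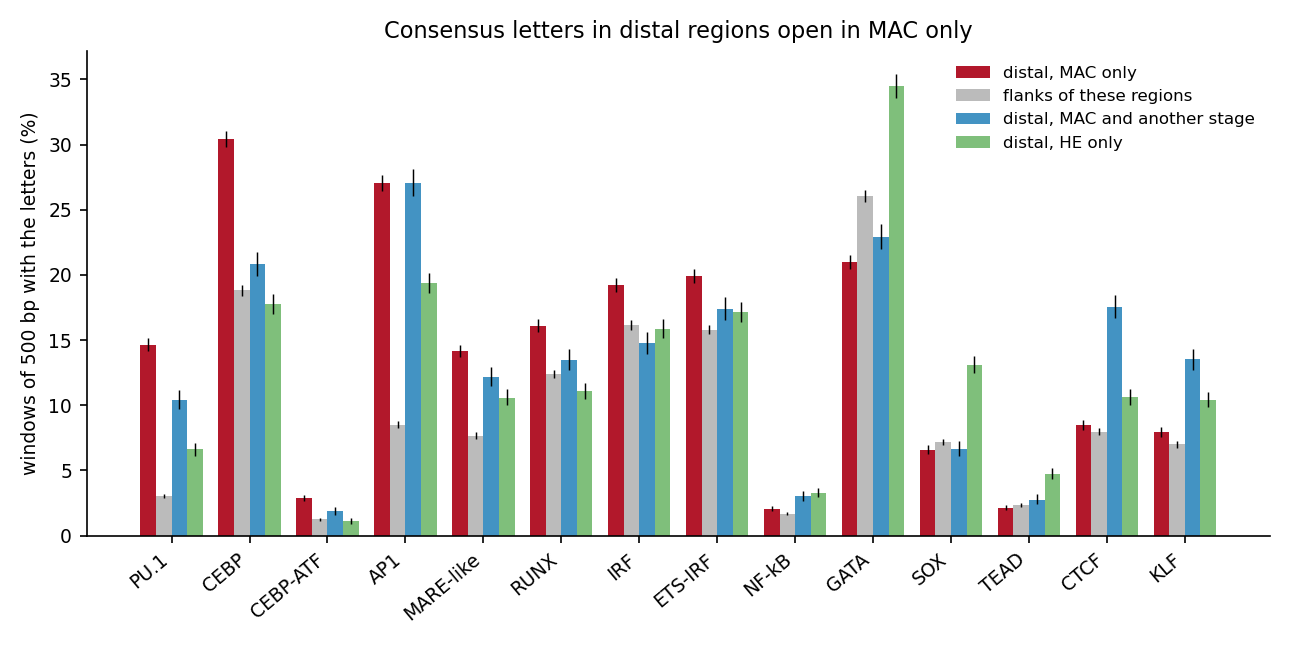
Share (%) of 500 bp windows that hold each consensus in distal regions open in MAC only, in their flanks, in distal regions open in MAC and another stage, and in distal regions open in HE only, with 95% Wilson intervals as error bars. PU.1, CEBP and AP1 letters stand far above the flanks, while GATA letters are at 21.0% in the MAC-only regions and 34.5% in the HE-only regions.

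To see how these regions differ from other open chromatin of the same cells, they were compared with the 7081 distal regions open in MAC and in at least 1 other stage. CEBP letters were more frequent in the MAC-only regions by 9.62 percentage points (8.47 to 10.7), PU.1 letters by 4.22 (3.34 to 5.07), IRF letters by 4.48 (3.47 to 5.46) and RUNX letters by 2.62 (1.66 to 3.55). AP1 letters were at 27.1% in each set, a difference of 0.03 points (-1.18 to 1.22), but the call depended on the setting. It was 1.66 (0.63 to 2.67) in the central 200 bp and 2.29 (0.27 to 4.27) with the widest sites of each list. Reversed letters also differed between both sets, by 2.59 points for IRF, 1.45 for RUNX and 1.99 for AP1, but by -0.51 for PU.1 and -0.94 for CEBP. The reversed letters of CEBP and CTCF contain CG, and the shared regions held more CpG-rich windows, so they are a poor background here. The RUNX difference was 1.46 points (-0.17 to 3.02) with the widest sites of each list, where the interval held 0. By GC content, RUNX letters were in 17.3% of MAC-only and 16.7% of shared regions up to 44% GC, and in 14.5% and 9.87% above 52%, and the shares in both classes between were 16.4% and 16.6%, and 14.7% and 15.0%. IRF letters were higher in the MAC-only regions in 3 of the 4 classes and lower at 48 to 52% GC (15.7% and 16.6%). CTCF letters were at 8.50% in the MAC-only regions, close to the flanks (7.98%), and at 17.5% in the shared regions, a difference of -9.04 points (-10.0 to -8.08), and their reversed letters were in 1.01% and 2.17%. KLF letters were at 7.92% and 13.5%, and their reversed letters at 7.41% and 12.6%. NF-kB letters were less frequent in the MAC-only regions (2.04%) than in the shared ones (3.02%), but with the widest sites the difference was -0.68 points (-1.47 to 0.01).

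The shared regions are a mixture, and the comparison depended on which stages shared them. PU.1 letters were in 15.0% of the 2187 distal regions open in HE and MAC alone and in 14.9% of the 944 open in HE, HP and MAC, so that the MAC-only regions differed from these by -0.31 (-1.94 to 1.21) and -0.29 (-2.76 to 1.89) points. In the 1596 distal regions open in all 5 stages they were in 5.01%. AP1 letters were less frequent in the MAC-only regions than in the HE and MAC regions (36.6%) and the HE, HP and MAC regions (43.8%), and more frequent than in the regions open in all 5 stages (14.9%). CEBP letters were higher in the MAC-only regions than in the HE and MAC regions (22.8%), the HE, HP and MAC regions (22.5%) and the regions open in all 5 stages (15.4%). In the 355 distal regions open in HP and MAC alone CEBP letters were in 26.2%, and the difference of 4.24 points (-0.62 to 8.59) could not be resolved at that number. RUNX letters were more frequent in that last set (24.5%) and in the HE, HP and MAC regions (20.3%) than in the MAC-only regions, which differed from the latter by -4.25 points (-6.98 to -1.75). In the HE and MAC regions RUNX letters were in 14.6%, a difference of 1.46 points (-0.16 to 2.97). They were in 8.71% of the regions open in all 5 stages, a difference of 7.38 points (5.82 to 8.77). The interval of the difference excluded 0 for CEBP letters in 3 of these 4 sets and for PU.1 letters in 1.

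Against distal regions open in HE only, the other large single-stage set (9884 regions), the MAC-only regions had more PU.1 letters by 8.02 points (7.32 to 8.71), more CEBP letters by 12.7 (11.7 to 13.7) and more AP1 letters by 7.71 (6.71 to 8.70). Reversed AP1 letters were also more frequent, by 2.15 points (1.43 to 2.86), while reversed PU.1 letters differed by -0.14 (-0.61 to 0.30). Letters of the earlier stages were fewer. GATA letters were in 21.0% of MAC-only and 34.5% of HE-only regions, and also fewer than in the flanks of the MAC-only regions (26%). SOX letters were in 6.57% and 13.1%, and TEAD letters in 2.12% and 4.75%. NF-kB (2.04% and 3.29%), KLF (7.92% and 10.4%) and CTCF letters (8.50% and 10.6%) were also fewer than in the HE-only regions. Against the HE-only regions reversed GATA letters went the other way, with 22.7% and 19.2%, and reversed SOX letters were in 4.3% and 3.85%. Against the flanks, however, reversed GATA letters were also fewer (24.7% of flanks), by -2.05 points (-2.77 to -1.32). The true GATA letters differed from the flanks by -5.06 points (-5.78 to -4.34).

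Matches of PU.1, AP1 and CEBP letters lay close to the middle of the MAC site. Within the central 200 bp the PU.1 letters occurred 0.536 times per kb, against 0.0688 at 1 to 2 kb from the middle of the same sites, a ratio of 7.78. AP1 letters had a ratio of 5.28, CEBP-ATF letters 3.34, CEBP letters 2.20, RUNX letters 1.61 and IRF letters 1.31. NF-kB letters had no clear peak, with a ratio of 1.15 and 1.10 for their reversed letters. The ratio of TEAD letters was 0.728, with 0.755 for their reversed letters. At 200 to 400 bp from the middle PU.1 letters were already down to 0.0917 and AP1 letters to 0.233 per kb. GATA letters formed a dip in place of a peak, with a ratio of 0.633, while their reversed letters had 0.844. Reversed PU.1 letters were flat (0.973), and reversed AP1 letters had a ratio of 1.47.

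**Figure D2:**
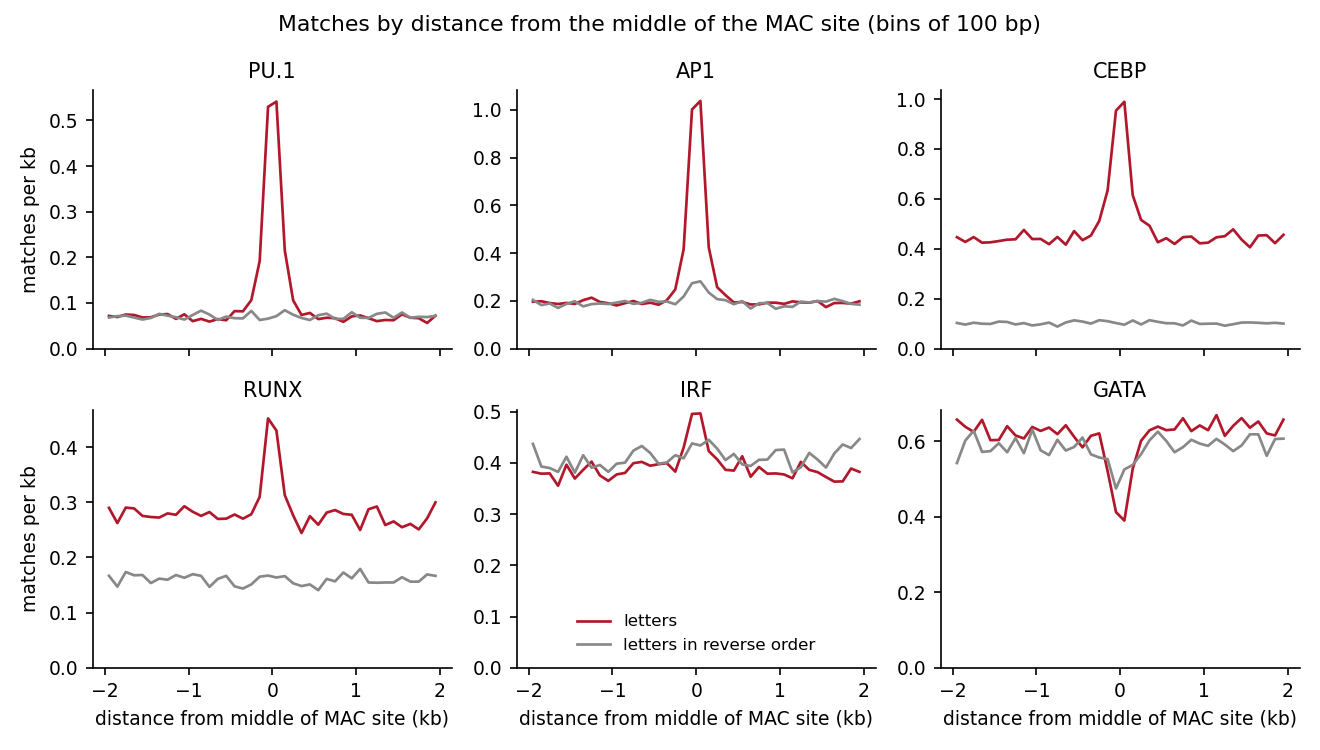
Matches per kb of 6 consensus letters (red) and of the same letters in reverse order (grey) by distance in kb from the middle of the MAC site, in bins of 100 bp over the 19984 MAC-only distal regions. PU.1 rises from 0.0688 per kb at 1 to 2 kb to 0.536 in the central 200 bp, AP1 and CEBP peak at the same place, and GATA dips there.

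A search of all words of 7 letters, which assumes no factor, led to AP1 and ETS cores. The RUNX letters, which form such a word, were not among the first 10. CEBP and IRF letters hold free bases and are split over many words, so their absence from the first 10 says nothing about them. Of 8192 words joined with their reverse complements, 247 (3.02%) were at least 1.5 times as frequent in the regions as in the flanks and 206 (2.51%) were at most 1/1.5 times as frequent. The highest ratio among words in at least 200 regions was 3.18, for TGACTCA, the AP1 letters. ACTTCCT, the core of ETS sites on the other strand, was in 33.1% of regions and 11.9% of flanks (2.77), CACTTCC in 25.5% and 9.31% (2.74) and ACTTCCC in 19.6% and 7.63% (2.56). The remaining words of the first 10, all without the dinucleotide CG, extend or overlap one of these cores, such as ATGACTC (2.30), GAAGTGA (2.25), GAGTCAC (2.24) and GGAAGTA (2.15). Of the words that led, GGAAGTA was also more frequent than in the shared MAC regions (13.5% against 9.36%), whereas GAGTCAC was less so (15.9% against 17.2%). At the other end, named after their values were seen, were AGTTCGA (1.27% of regions, 3.41% of flanks) and words of alternating A and T such as ATATATA (4.70% and 9.70%).

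Most regions held few kinds of letters at a time. Of the 8 myeloid and inflammatory kinds (PU.1, CEBP, AP1, CEBP-ATF, ETS-IRF, IRF, RUNX and NF-kB), 20.7% of regions held none, 40.2% held 1, 27.3% held 2 and 11.8% held 3 or more, against 3.03% of flanks with 3 or more. PU.1 and AP1 letters met in 604 regions, or 3.02%, where the product of their shares is 3.97%, a ratio of 0.762. In the flanks that ratio was 1.06. PU.1 and CEBP letters met in 3.73% of regions (ratio 0.838, flanks 0.888), and AP1 and CEBP letters in 7.72% (ratio 0.937, flanks 0.927). All 3 were present in 147 regions (0.736%). Regions with the letters of PU.1 and of AP1 were thus fewer than the shares of each alone would give, without a test of that difference.

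How far the letters varied among the regions themselves depended on the kind. PU.1 letters were in 14.4% of regions at 2 to 10 kb from a TSS and in 16.2% of those over 100 kb away, and AP1 letters in 26.1% and 28.9%. Introns and the space between genes gave 14.2% and 15.1% for PU.1, 28.7% and 32.3% for CEBP, and 26.6% and 27.8% for AP1. In the 566 regions centred in exons PU.1 letters were in 15% and AP1 letters in 21.9% (18.7 to 25.5). Regions whose nearest gene had a promoter open in MAC only held PU.1 letters in 13.9% of 596 cases (11.4 to 16.9), and regions near genes with promoters open in all 5 stages in 13.9% of 9215. RUNX letters were at 19.5% (16.5 to 22.8) in the former and 15.5% (14.8 to 16.3) in the latter. The letters of CEBP went from 27.5% (25.4 to 29.7) in the 1656 regions with a site of another stage within 1 kb to 36.5% (33.5 to 39.6) in the 946 with none within 100 kb, and those of CTCF from 10.9% to 5.29%. Between the same classes IRF letters went from 16.7% to 22.7%, GATA letters from 18.7% to 26.1%, AP1 letters from 25.4% to 29.7% and PU.1 letters from 13.6% to 16%.

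Base composition moved with some of these shares. Between MAC-only regions of at most 44% GC and those above 52%, GATA letters went from 28.7% to 10.2% and CTCF letters from 4.62% to 17.2%. The median GC content was 46.4% in the MAC-only regions, 44.4% in their flanks, 50.6% in the shared MAC regions and 48.4% in the HE-only regions. CpG-rich windows made up 0.205% of the MAC-only and 9.16% of the shared regions. Soft-masked repeats covered 14.7% of the regions on average and 27.3% of the flanks. Within regions of at most 44% GC, CEBP letters were in 37.2% of MAC-only and 28.4% of shared regions, and above 52% GC in 21.3% and 15.5%, so the difference was seen at both ends. AP1 letters kept to 26.6% and 26.7% of the MAC-only regions in these classes, but went from 32.7% (29.6 to 36.0) to 21.7% (20.2 to 23.2) in the shared regions. The shares were 27.8% and 31.6% at 44 to 48% GC and 27.0% and 29.0% at 48 to 52%, so AP1 letters were lower in the MAC-only regions in 3 of 4 classes and higher above 52% GC.

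The sites themselves were narrow. The deposited MAC site had a median width of 500 bp (quartiles 300 to 700) in the MAC-only regions and 600 bp (400 to 800) in the shared ones, in a list that gives widths in steps of 100 bp. Sites of 1000 bp or more were 5.65% of the MAC-only and 14.2% of the shared regions. Sites named here for their width were picked after their values were seen. The widest measured 1900 bp, 7.27 kb from the TSS of 5031439G07Rik, and sites of 1700 bp lay 5.27 kb from Cd84, a receptor of immune cells, and 12.3 kb from Ccl2, the chemokine that draws monocytes. AP1 letters were in 23.2% (21.7 to 24.7) of regions with a MAC site of 100 to 200 bp and in 30.5% (28.6 to 32.5) at 800 to 900 bp. CEBP letters went from 28.2% to 33.4% and PU.1 letters from 13.3% to 16% over the same classes. At 1000 bp or more all 3 were lower again (25.8%, 29.1% and 12.3%). In every width class CEBP letters were more frequent in the MAC-only than in the shared regions.

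**Figure D3:**
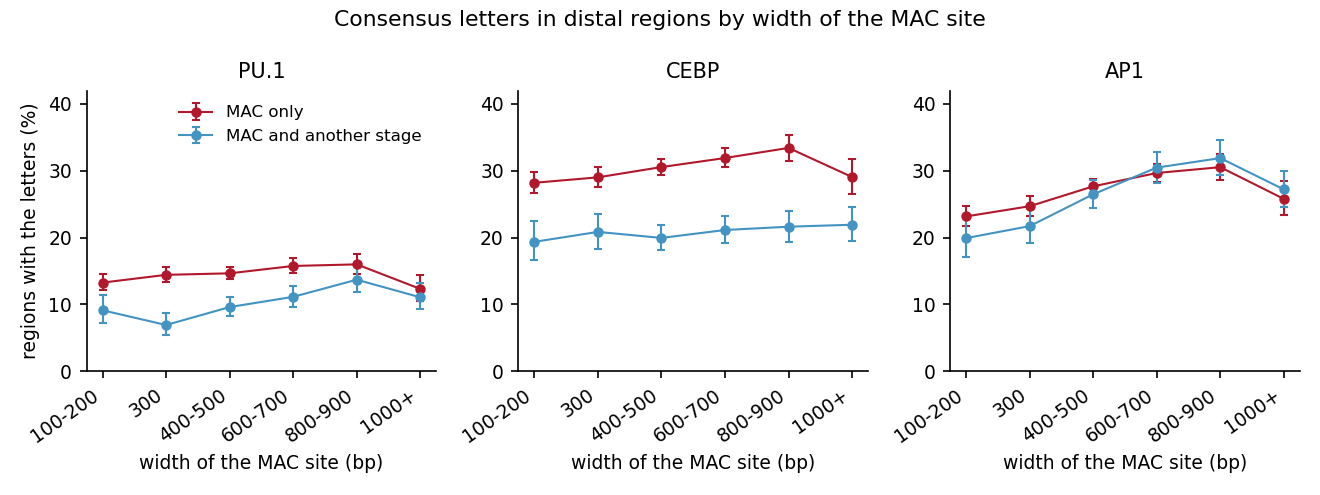
Share (%) of distal regions with the PU.1, CEBP and AP1 letters by width of the MAC site in bp, for regions open in MAC only and for regions open in MAC and another stage, with 95% Wilson intervals. CEBP letters separate both sets in each class, and AP1 letters run together from 400 bp upwards.

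Thresholds of the choice cut through a continuous range. There were 282 MAC-only regions at 1.5 to 2 kb from a TSS, just outside, and 279 at 2 to 2.5 kb, just inside. In 586 of the regions (2.93%) the deposited MAC site overlapped a deposited site of another stage although their windows did not overlap enough to be chained, in 502 of these a site of HE. Sites of other stages were often near, since 50.1% of the regions had a site of another stage within 10 kb and 8.29% within 1 kb. The median gap was 9.98 kb to the nearest site of any other stage and 13.2 kb to the nearest HE site. MAC-only regions were 73.8% of the 27065 distal MAC regions, where single-stage regions were 47.3% for HE, 26.5% for HB, 22.6% for MES and 17.2% for HP.

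In the genome, 49.3% of the regions were centred in introns, 47.8% between genes, 1.37% in coding exons and 1.46% in untranslated parts of exons. The median distance to the nearest TSS was 28.4 kb, with 17.4% beyond 100 kb. Of the intronic regions 79.6% lay in the gene whose TSS was also the nearest. Chromosome X held 1.37 regions per Mb and the autosomes 8.25 per Mb, a ratio of 0.166. Distal regions of the other lists were also scarce on X, with ratios of 0.179 (MES), 0.201 (HB), 0.235 (HE) and 0.171 (HP). The share of distal MAC regions on X that were MAC-only was 73.7%, as in the genome as a whole, and on single autosomes it ran from 67.4% (chromosome 8) to 78.2% (chromosome 16).

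Neighbouring regions formed runs. Joined at gaps under 10 kb, the regions made 15304 runs, of which 12082 were single regions and 112 held 5 or more (636 regions). The longest had 11 regions in 47.3 kb, inside Lpp (chr16:24593458-24640757), the gene of a protein of cell adhesion sites. Runs of 9 lay near Zfp36l2, which encodes an RNA-binding protein that destabilises mRNA (chr17:84089538-84126637), and downstream of Trib1, a pseudokinase that sets the level of C/EBPα (chr15:59709836-59752485). Runs of 8 lay near Enpp6 (chr8:46881226-46905425), near Rpl31 (chr1:39281815-39314164) and in introns of Syk, the kinase of Fc receptor and integrin signalling (chr13:52600162-52636661). Each distal MAC region in these 6 runs was MAC-only. Letters of PU.1 were in 12.4% and RUNX letters in 18.7% of regions in runs of 5 or more, against 15.4% and 15.6% of single regions.

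Assigned to the nearest TSS within 100 kb, 16511 of the regions fell to 7570 of 21000 protein-coding genes (36%), and 746 genes (3.55%) had 5 or more. For HE-only regions 4866 genes (23.2%) had at least 1. The gene with most was Lpp with 22, followed by Trib1 with 17, Rbm47, Tns3 and Zfp36l2 with 15 each, Cd44, Elmo1 and Sgms1 with 14, and Cmip and Enpp6 with 13, as had 2 further genes. This order depended on the reach. Within 50 kb Rbm47 kept 15 and Cmip 13, while Lpp had 9, Tns3 8, Trib1 5 and Zfp36l2 3. Cd44 encodes the receptor for hyaluronan and Elmo1 a partner of Dock proteins in engulfment. Lpp, Rbm47 and Zfp36l2 had no HE-only region, while Trib1, Cd44 and Elmo1 each had 4. Per length of the stretch nearest to a gene, Osgin1 led with 27.4 regions per 100 kb, before Plekho2 (20.4), Tbc1d10a (20.1), Tuba8 (18.4) and Ccl2 (17.3). Gpnmb, a glycoprotein of lysosomes in macrophages, had 15.2 and Cd74, the invariant chain of MHC class II, 15.1. Over all genes the median was 0 regions.

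The order of the lists depended on the scale, since the stretch nearest to a gene and over 2 kb from a TSS had a median length of 17.3 kb for MHC class II, 117 kb for lipid handling and 162 kb for pluripotency genes, and 44.8 kb over all genes. Medians per 100 kb of that stretch were 5.77 for MHC class II, 5.76 for lysosome, 5.31 for Fc receptor, 4.41 for NF-kB, 4.38 for myeloid transcription factor, 3.89 for surface and 3.73 for lipid handling genes. They were 2.91 for cytokine, 2.64 for Toll-like receptor and 0 for complement genes, as over all genes.

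Transcription factor genes of the myeloid lineage had regions throughout. All 15 genes on that list had at least 2 MAC-only distal regions, 74 in all, with a median of 4 per gene, and they had 13 HE-only regions. Of all genes 36% had at least 1. The stretches of the listed genes were longer, with a median of 110 kb against 44.8 kb over all genes. Irf8, the factor that directs monocyte fate, had 12, in 6.79 to 79.5 kb from its TSS. Of these, 4 lay upstream, the widest with a MAC site of 1500 bp at 20.4 kb upstream (chr8:120715726-120716225), and 3 of the 12 held PU.1, 3 CEBP and 3 AP1 letters. Cebpb, a factor of inflammatory gene expression, had 10, all downstream at 21.9 to 86.6 kb, of which 5 held CEBP letters and none held PU.1 or AP1 letters. No site was listed within 1 kb of the Cebpb TSS in any stage. Mitf had 9 and Runx3 8, which is 2.45 and 4.47 per 100 kb of their stretches. Spi1 itself had 2, in introns at 2.12 and 4.12 kb, or 8.68 per 100 kb.

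Surface and scavenger receptor genes had regions at 12 of 15 genes (51 regions, median 3). Marco and Msr1, receptors for modified lipoproteins and bacteria, had 8 each, and Csf1r, the receptor for the growth factor of macrophages, had 6. All 8 regions of Marco held at least 1 of the PU.1, CEBP and AP1 letters, although Marco had no promoter site in any list. Of all the regions 58.4% did, and of those at Irf8 6 of 12. Such counts at single genes were not tested against the shares over all regions (14.6% for PU.1, 30.4% for CEBP and 27.1% for AP1 letters). The Marco regions lay from 27.8 kb upstream to 74.7 kb downstream of its TSS. At Msr1 5 of 8 regions were in its introns, the widest with a MAC site of 1500 bp at 23.1 kb (chr8:39619326-39619825). Itgam, which encodes the CD11b antigen used in sorting, had 4 regions, of which 3 held PU.1 letters. Cd68, with a stretch of 1.13 kb, Clec4e and Clec7a had none.

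Genes of microbial sensing and of Fc receptors also had regions in most cases. Toll-like receptor genes had them at 11 of 12 (32 regions, median 2), with 8 at Tlr4, the receptor for bacterial lipopolysaccharide, and none at Tlr6. Of the 8 at Tlr4, 3 held AP1 letters, 2 CEBP and 1 PU.1 letters, and their MAC sites ranged from 200 to 1000 bp. Fc receptor and adaptor genes had regions at 9 of 11 (39 regions, median 2). Syk had 12, of which 8 were in its introns, and Lyn, a Src family kinase, had 8. Fcer1g and Tyrobp, the adaptors, had none.

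Genes of digestion and of lipid handling had regions in most cases too. Lysosome and cathepsin genes had regions at 13 of 14 (43 regions, median 2.5), with 10 at Lgmn, an asparaginyl protease, and 6 at Gpnmb, of which 5 were upstream. Of the 10 at Lgmn 3 were in its introns, while those at 59.9 to 73.8 kb lay in introns of another gene, Rin3. Lipid handling genes had regions at 9 of 12 (63 regions, median 4.5), with 17 at Trib1, 12 at Abca1, the exporter of cholesterol, and 7 at Pparg, a receptor for fatty acids. Within 50 kb Trib1 had 5. The Trib1 regions over 50 kb upstream lay in introns of another gene, Nsmce2. At Abca1 7 of the 12 were in its introns and 6 held CEBP letters. Apoe, Fabp4 and Nr1h3 had none. The stretch nearest to these last was short for Apoe (6.99 kb) and Nr1h3 (5.89 kb).

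Inflammatory genes were less uniform. Cytokine and chemokine genes had regions at 11 of 15 (27 regions, median 1). Ccl2 had 6, all upstream at 5.36 to 30.6 kb, with MAC sites of 100 to 1700 bp. Il1b had 3 with MAC sites of 900 to 1100 bp, 2 of them with PU.1 letters, and no promoter site. Il1a and Il10 had 4 each, Il6 had 1 and Tnf, with a stretch of 1.75 kb, none. NF-kB and feedback genes had regions at 11 of 14 (48 regions, median 3), with 9 at Tnfaip3, the ubiquitin editor that restrains NF-kB, 8 at Nfkbiz, 6 at Rel and none at Rela or Relb. MHC class II genes had regions at 5 of 7 (10 regions), 5 of them at Cd74. Complement genes, whose stretches were short (median 23.8 kb), had them at 3 of 10 (10 regions), namely Itgax, Itgb2 and C3ar1, and 9 of the 10 had a MAC promoter site.

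Lists of other lineages were read against all genes, of which 36% had at least 1 region, with a mean of 0.786 per gene. Primitive streak and mesoderm genes had them at 5 of 12, with 1 each, against 11 HE-only regions. Erythroid and megakaryocyte genes had 3 regions at 3 of 14 genes (HE-only 1). Cardiac and smooth muscle genes had 11 at 4 of 12 (HE-only 19), and pluripotency genes 8 at 5 of 10 (HE-only 16). Endothelial genes had 22 at 7 of 14, beside 31 HE-only regions, with 5 at Flt1 and 4 each at Kdr, Erg and Sox7. Cytosolic ribosomal protein genes, which are active in every stage, had 7 at 5 of 12 (HE-only 4). Shares of genes with a region were thus at or above that of all genes in the mesoderm, endothelial, pluripotency and ribosomal lists, and below it in the erythroid and cardiac lists. Medians of these 6 lists were 0 or 0.5, beside a median of 0 over all genes. With the widest sites of each list, cut to the length of the HP list, medians were lower, at 2 for the myeloid transcription factors and for lipid handling genes, and at 1 for the surface, Toll-like receptor, Fc receptor, lysosome and NF-kB lists, while that of the cytokine list was 1 as before. The lists were drawn up with results of these data known, so the counts describe the genes and do not test the lists.

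**Figure D4:**
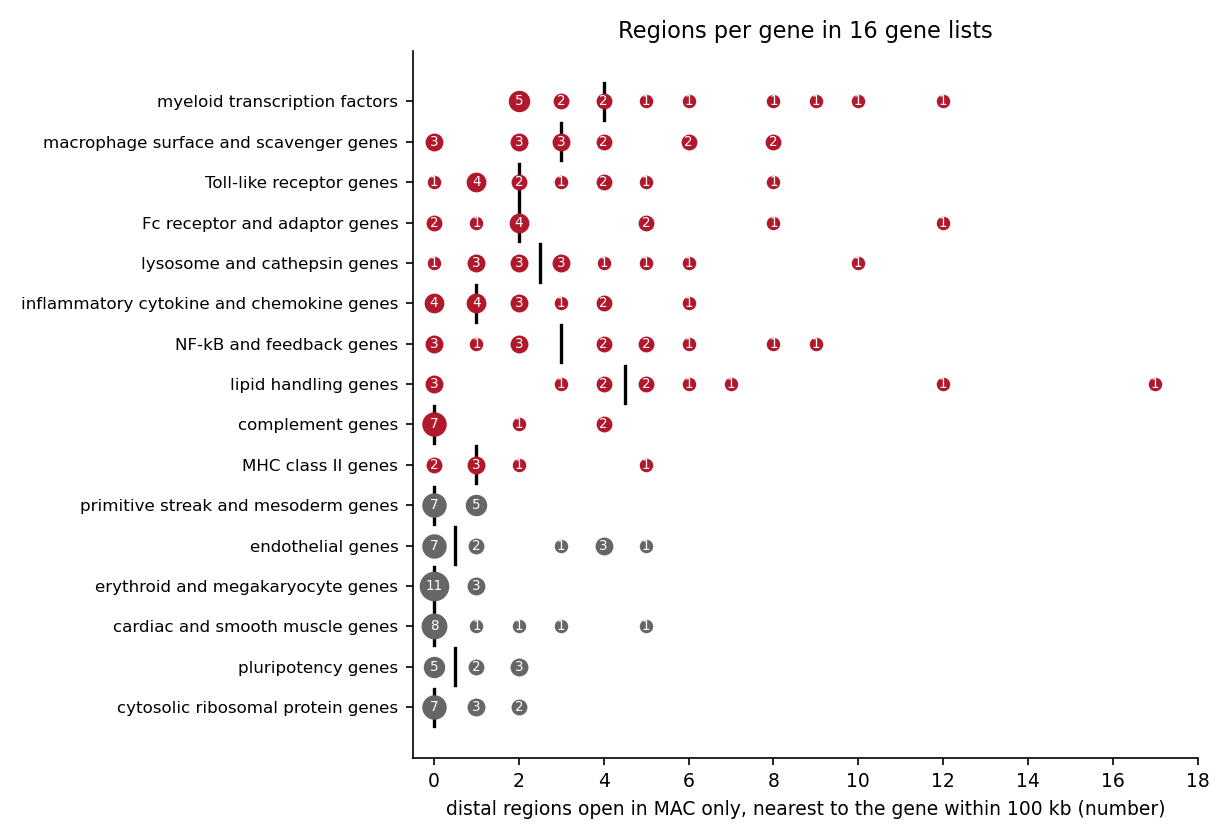
Number of MAC-only distal regions nearest to each gene within 100 kb in 16 gene lists; digits in the points give how many genes share a value, black lines the medians, red the 10 myeloid and immune lists and grey the 6 lists of other lineages and of ribosomal proteins. Myeloid transcription factor genes start at 2 regions, and lipid handling genes reach 17 at Trib1.

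Promoter sites, which had no part in the choice, were compared between the nearest genes of the MAC-only and of the HE-only regions. A MAC site lay within 1 kb of a TSS of the nearest gene for 70.0% of 16511 MAC-only regions and 59.3% of 7704 HE-only regions, a difference of 10.7 points (9.37 to 12). For the shared MAC regions it was 68.7%, and the MAC-only regions differed from these by 1.24 points (-0.10 to 2.59), so that a MAC promoter site was not particular to the genes of the MAC-only regions. Of all genes, 50.2% had one. For HP promoter sites the difference from the HE-only regions was 3.17 points (1.86 to 4.49), for MES 0.00 (-1.21 to 1.22), for HB -0.27 (-1.44 to 0.91) and for HE -1.95 (-3.01 to -0.88). Regions of 1 gene are not independent, which these intervals leave out. The nearest gene had promoter sites in all 5 stages for 55.8% of the regions, where 43.4% of all genes are of that kind. It had one in MAC only for 3.61% of the regions (1.77% of genes) and none in any list for 13% (32.4% of genes).

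Per length, however, genes with a promoter open in MAC only stood first. The 372 such genes had 2.82 MAC-only distal regions per 100 kb, and 63.7% (58.7 to 68.4) had at least 1. Genes with a promoter open in MAC and some other stages had 1.98, those open in all 5 stages 1.67, those open in other stages but not in MAC 0.833, and those with no promoter site 0.513 per 100 kb. HE-only regions followed another order, with 0.407 per 100 kb at genes whose promoter was open in MAC only and 0.693 at genes open in all 5 stages. The ratio of MAC-only to HE-only regions was 6.93 at genes with a promoter open in MAC only, 2.41 at genes open in all 5 stages and 1.35 at genes open in other stages but not in MAC.

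**Figure D5:**
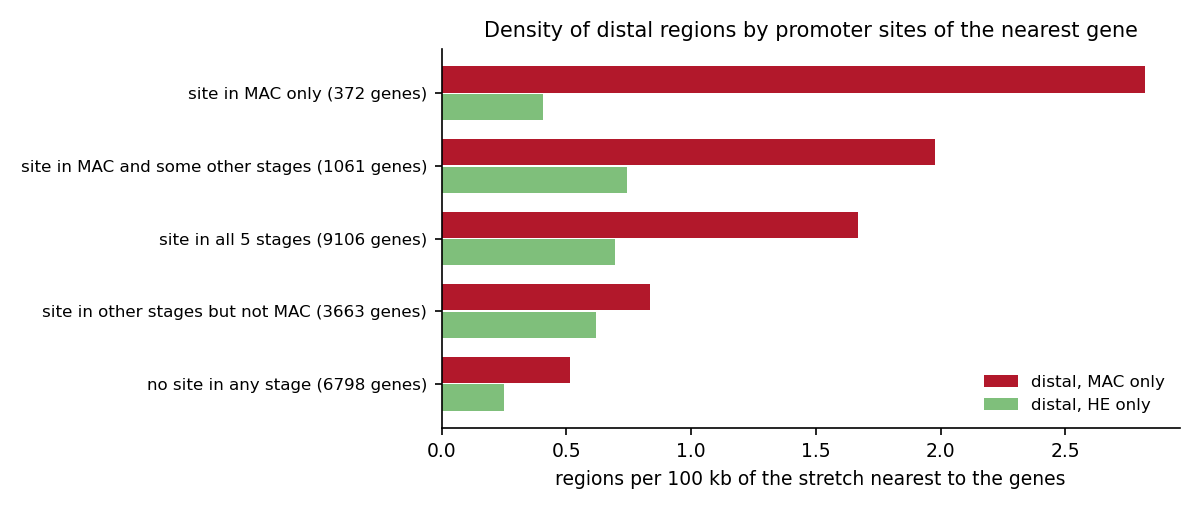
Distal regions per 100 kb of the stretch nearest to protein-coding genes, for regions open in MAC only (red) and in HE only (green), by the stages in which the promoter of the gene had a site. The MAC-only regions fall from 2.82 at genes with a promoter site in MAC only to 0.513 at genes with none, while the HE-only regions stay between 0.250 and 0.742.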

How the data were processed

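The data were 5 lists of DNaseI-seq sites, 1 per stage. The authors aligned reads to mm10, kept unique reads, removed duplicates and called sites with DFilter. The submitters' processing notes also name Bowtie and HOMER, with no versions. The deposited lists used here hold positions alone, the first and last base of each site in base pairs, with no score or read count, so the depth behind a site and its precision cannot be given. Read totals of the libraries were not used here.

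Windows of 500 bp round site middles were merged at an overlap of 125 bp, following the study, which centred its windows on summits. TSS of curated RefSeq mRNAs (25999 positions, 21000 genes) and sequence came from GRCm38.p6, and the mitochondrial chromosome was left out. Gene assignment reached 100 kb and promoter sites 1 kb. A window was CpG-rich at a GC content of at least 50% and an observed to expected CpG ratio of at least 0.6. Shares have 95% Wilson and differences Newcombe intervals, and no test was run, since each stage had 1 list. Merging, letter search and Wilson intervals were tested on simulated data.

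The regions, letters and gene lists were chosen with earlier results of these data known. Named genes were those of the lists, the 10 genes with most regions the 10 densest with at least 5 and those at the longest 5 runs (6 with a tie), beside the 10 words with the highest ratio. Each printed sequence was the region of a list with most kinds of letters, ties going to the widest MAC site. Alternatives covered merging, window, distance, width and reach. Python 3.11.15, pandas 2.3.3, numpy 2.4.6 and matplotlib 3.10.9 were used.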

Additional observations from a re-analysis of the deposited data

How the results depend on the processing

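Limits come from the lists. With 1 list per stage and no read counts in the lists used here, neither replicate spread nor the depth behind a site can be given. No paired analysis was possible because each stage had 1 list. Leaving out a replicate was not possible for the same reason.

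The 19984 regions numbered 9097 when each list kept only its sites of median width or more, and 7626 when each was cut, widest first, to as many sites as HP has. Under the other 6 settings (merging at 250 bp or 1 bp, deposited intervals, TSS of all transcripts, a distance of 5 kb, and HE not required to lack a site) the count stayed within 1.5 times. PU.1 letters (14.6%) were in 9.96% of regions in the central 200 bp, 15.2% of whole MAC intervals, 15.2% with sites of at least median width, 15.4% with the widest sites and 3.55% in reverse order. CEBP letters (30.4%) were in 17.0% in the central 200 bp, 31.4% with the widest sites and 5.03% in reverse order. AP1 letters (27.1%) were in 18.3% in the central 200 bp, 27.9% of whole intervals, 30.4% with sites of at least median width, 30.1% with the widest sites and 11.2% in reverse order. Against the shared MAC regions, the difference for CEBP was 8.0 points in the central 200 bp. The AP1 difference of 0.03 points became 1.66 (0.63 to 2.67) in the central 200 bp and 2.29 (0.27 to 4.27) with the widest sites, where the interval no longer held 0. The cause was not tested. Differences from flanks at 3 kb stayed within the intervals of those at 1.5 kb for all 12 kinds of letters tried. Genes with at least 1 region were 33.0% at a reach of 50 kb (36.0% at 100 kb). No planned result reversed. Beyond these, 29 values for shares moved and 43 did not, 6 differences from shared regions moved and 12 did not, and 21 list medians did not move and 11 did. With the widest sites the medians were lower for 7 of the 8 myeloid and inflammatory lists with the highest counts (myeloid transcription factors 4 to 2, surface 3 to 1, Toll-like and Fc receptors 2 to 1, lysosome 2.5 to 1, NF-kB 3 to 1, lipid 4.5 to 2), and the intervals of the RUNX, NF-kB and TEAD differences from shared regions held 0.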
